A study of Mus musculus with 6 samples.

Results

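Interferon-stimulated genes and the factors that switch them on were compared between glycogen-rich liver lesions and the normal liver beside them. The set held 47 genes, found by symbol among the 25230 rows of the count table, and all 47 passed the filter on low counts that left 12506 genes for testing. The mice were male C57BL/6 animals that had all been injected with diethylnitrosamine (DEN), a liver carcinogen, at 25 mg/kg and an age of 14 days. The lesion group was 3 small regions of stacked glycogen labelled as tumours at 7 months, and the other group was 3 regions of normal adjacent tissue at 7 months, all cut from paraffin sections. The normal regions therefore carried the carcinogen exposure too, and no untreated liver was part of the comparison. The labels do not say which regions came from which mouse, so p-values measure only the spread between these samples, and they are too small wherever 1 mouse gave more than 1 region of a group.

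Interferons are secreted warning signals that bind paired receptor chains on nearly every cell. The receptors activate JAK kinases, which phosphorylate STAT proteins. STAT dimers and the complex of STAT proteins with Irf9 then enter the nucleus and switch on genes whose products sense viral RNA, block viral translation and call in lymphocytes. The promoters of many such genes hold an interferon-stimulated response element (ISRE), with a core that reads GAAA, any 2 bases, then GAAA, on either strand, or a gamma-activated site (GAS), TTCNNNGAA. In liver, hepatocytes, Kupffer cells (the resident macrophages) and endothelial cells can all respond.

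RefSeq promoter sequence was at hand for 39 of the 47 genes. In the 250 bases before the start, 16 of these 39 genes (41%) held an ISRE core, against 3.46% of all 27025 genes with a promoter entry. A GAS stood in 11 of 39 (28.2%), against 8.13% of all. The elements of 6 members are shown because they are the sequence that marks this gene family, with ISRE cores in capitals, 5′ to 3′ on the gene's strand, in build GRCm38.p6. Isg15 holds 3 overlapping cores, Oas1a, Irgm1 and Bst2 hold 2 each, and the 2 cores of Ifit1 are separated by the bases in lower case. The start used is RefSeq's. By GENCODE positions the Irgm1 and Gbp2 elements lie inside the gene, and all 250 bases of the Irgm1 window are in annotated exons.
Ifit1, chr19:34640785-34640813, plus strand: TTTCACTTTCcagtctcagTTTCAGTTTC
Isg15, chr4:156200875-156200896, minus strand: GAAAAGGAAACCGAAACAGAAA
Oas1a, chr5:120907530-120907545, minus strand: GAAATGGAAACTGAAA
Irgm1, chr11:48871435-48871450, minus strand: GAAATAGAAACCGAAA
Bst2, chr8:71537587-71537602, minus strand: GAAAATGAAACTGAAA
Gbp2, chr3:142620604-142620613, plus strand: TTTCACTTTC

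Of the 16 members with an ISRE core, 1 was lower in lesions, 0 were higher, and the median log2 fold change was -0.06. Of the 23 without, 3 were lower and 2 higher, at a median of 0.00. The chemokine gene Cxcl9, which had the deepest fall among all members, is shown as a window in which neither motif was found. Its 250 bases before the start are chr5:92328080-92328329, minus strand, with no capitals because no core was matched. Only the ISRE core and the GAS were searched for, so the window may hold other response elements.
Cxcl9: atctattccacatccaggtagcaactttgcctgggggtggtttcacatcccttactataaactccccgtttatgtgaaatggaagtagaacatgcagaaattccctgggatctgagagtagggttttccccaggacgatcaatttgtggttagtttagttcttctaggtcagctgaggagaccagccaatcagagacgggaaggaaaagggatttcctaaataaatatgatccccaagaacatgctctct

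Most members differed little between lesions and normal regions. With edgeR's quasi-likelihood test, 3 of 47 rose, 6 fell and 38 did not pass, so 19.1% of members were called, against 37.1% of all tested genes (18.7% higher and 18.4% lower). Lesion and normal libraries did not overlap in 16 members (34%), against 48.2% of all tested genes. The median log2 fold change was -0.02 over members and 0.00 over all tested genes, and the median size of change was 0.22 against 0.28. The summed level of the 47 genes was 1353.8, 1338.8 and 1430.2 CPM in lesions 1 to 3, against 1398.2, 1402.6 and 1423.0 CPM in normal regions 1 to 3, and the groups overlapped. The 6 that fell were Parp9, Dtx3l, Cxcl9, Irf7, Oas2 and Ifit1, and the 3 that rose were Irf3, Ifngr2 and Mx1. Mx1 was over the filter on low counts in lesion libraries only, so whether it was tested depended on where that filter was set. With no count filter Mx1 passed as higher too (adjusted p by edgeR = 0.0134). With at least 20 counts required in 3 libraries, Mx1 was not tested and the members that rose were Irf3 and Ifngr2.

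Parp9, Dtx3l and Irf3 passed whichever 1 library was left out, and each of the other 6 calls was lost without at least 1 of them. The count of lower members was 10 without lesion 3, 3 without normal 2 and 2 without normal 3, and the count of higher members was 1 without normal 2 or without normal 3. Scaling by library size alone shifted the median of all genes by -0.14. On that scale 1 member (Mx1) was higher and 11 were lower, against 11.8% and 28.9% of all tested genes. Higher genes then made up 29% of all calls, against 50.5% on the TMM scale used here. In the authors' deposited table, 5 of the 47 had an adjusted p under 0.05, against 23.3% of the 14151 genes with a value there. The 5 were Parp9, Dtx3l, Cxcl9, Irf7 and Irf3.

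**Figure D1:**
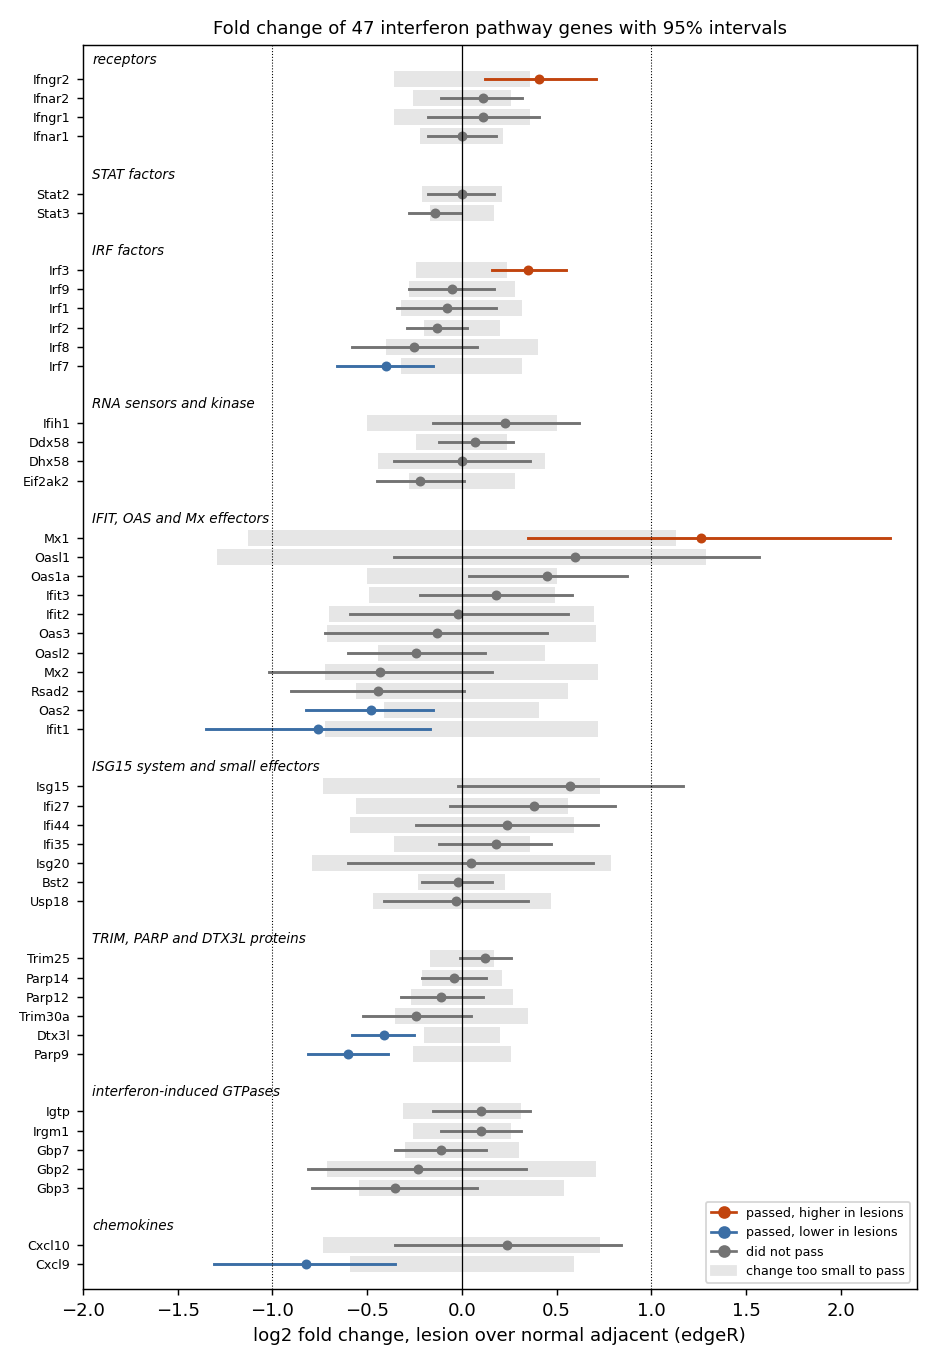
Log2 fold change of each of the 47 genes, lesion over normal adjacent, with its 95% interval (lines), grouped by role. Grey bands span changes too small to have passed, and dotted lines mark -1 and 1. The 9 genes that passed lie outside their bands, from -0.82 (Cxcl9) to 1.26 (Mx1). Mx1 was over the filter on low counts in lesion libraries only.

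The smallest change that would have passed was small for most members. It marks the edge of the threshold at the standard error seen, so a true change of that size would often be missed. The smallest log2 change that would have passed had a median of 0.36 over the 47 genes, a 1.28-fold difference, and the median over all tested genes was 0.36 too. It ran from 0.17 (1.12-fold) for Stat3 and Trim25 to 1.29 (2.45-fold) for Oasl1. It was under 0.5 in 31 genes, at or over 0.5 in 16, and at or over 1 in 2, Oasl1 and Mx1. It was smaller for genes with more counts. The 16 members with a mean of 200 or more counts per library had a median of 0.23, the 19 with 50 to under 200 counts had 0.36 (1.28-fold), and the 12 with under 50 counts had 0.72 (1.64-fold).

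The 95% interval of the fold change lay wholly between -1 and 1 for 41 of 47 members and between -0.5 and 0.5 for 20. A fall of 1 or more on the log2 scale lay inside the interval for Ifit1, Mx2 and Cxcl9, and a rise of 1 or more for Isg15, Mx1 and Oasl1. Standard errors were 1.26 times the counting error alone at the median. In 11 members the ratio was above 1.5, and it was highest in Oasl1 (3.5), Ifi27 (2.7) and Ifih1 (2.62), whose lesion libraries disagreed with one another.

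**Figure D2:**
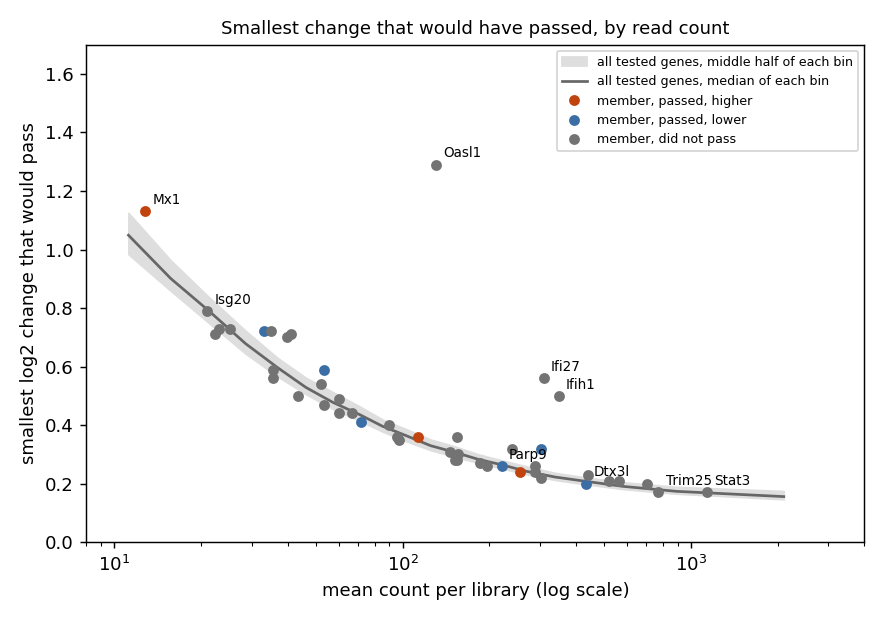
The smallest log2 change that would have passed, by mean count per library (log scale), for the 47 members (points) and for all tested genes in 20 bins of equal size (line: median, band: interquartile range). Of the 47 members, 18 lie above the band of the nearest bin, 18 inside it and 11 below it, and among those above are Oasl1 at 1.29, Ifi27 at 0.56 and Ifih1 at 0.50.

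Among the receptors, 1 of 4 rose, against 18.7% of all tested genes. Ifnar1 and Ifnar2 encode both chains of the receptor for type I interferons. Ifnar1 was at 42.3, 47.6 and 41.4 CPM in lesions 1 to 3, against 44.1, 44.5 and 42.4 CPM in normal regions, and the groups overlapped (log2 0.00, interval -0.18 to 0.18). Ifnar2 was at 38.0, 41.9 and 50 CPM in lesions and 40.7, 42.6 and 37.5 CPM in normal regions, again overlapping (log2 0.11, interval -0.11 to 0.32). Both intervals lie within 0.32 of no change on the log2 scale. Ifnar2 shares 315 exon bases with the gene model Gm21970 on the same strand, 9.46% of its exon bases. Ifngr1, which binds interferon gamma, was at 22.5, 18.6 and 28.5 CPM in lesions and 20.4, 20.6 and 23.2 CPM in normal regions (log2 0.11, interval -0.18 to 0.41).

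Ifngr2, the signalling chain of the gamma receptor, was at 18.7, 16.5 and 20.9 CPM in lesions, against 16.5, 12.9 and 12.8 CPM in normal regions. Lesion 2 and normal 1 stood at the same level to the digits given. It rose by 0.41 log2 units (SE 0.140, adjusted p by edgeR = 0.0268) and passed in 9 of 21 alternatives, with adjusted p from 0.0154 to 0.182. It did not pass without lesion 1, lesion 3, normal 2 or normal 3 (adjusted p by edgeR = 0.0557, 0.0604, 0.121 and 0.117).

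Neither STAT gene passed with edgeR, against 37.1% of all tested genes called. Stat3 had an unadjusted p by edgeR of 0.0393, and DESeq2 called 0. Stat2, the partner of Irf9 in the type I complex, was at 85.0, 88.9 and 70.7 CPM in lesions and 85.1, 80.0 and 80.3 CPM in normal regions. Lesion 3 was the lowest of the 6 libraries and the groups overlapped (log2 0.00, SE 0.082, interval -0.18 to 0.17). Stat3, which answers interleukin-6 more than interferon in liver, was at 157, 168 and 147 CPM in lesions, against 170, 172 and 178 CPM in normal regions. All lesion libraries lay below all normal libraries, but the log2 difference of -0.14 (SE 0.064) did not pass (adjusted p by edgeR = 0.0903), and the smallest change that would have passed was 0.17. Scaled by library size alone, Stat3 passed as lower, at -0.28 (adjusted p by edgeR = 0.00245).

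Of the 6 interferon regulatory factors (IRF), 1 was higher, 1 lower and 4 did not pass, against 37.1% of all tested genes called. Irf3 (Entrez 54131, chromosome 7, 44997648 to 45002848, plus strand) is the factor that turns on interferon genes after an RNA or DNA sensor fires. It was at 41.6, 40.7 and 41.9 CPM in lesions, against 30.5, 30.8 and 35.9 CPM in normal regions, and the groups did not overlap. Its log2 rise of 0.35 (SE 0.094, adjusted p by edgeR = 0.00587) held without any 1 library and in 18 of 21 alternatives, but not when libraries were scaled by size alone (0.21, adjusted p by edgeR = 0.0825). Irf3 shares 88 exon bases with Bcl2l12 on the other strand, 2.56% of its exon bases, and those reads cannot be told apart while the strand setting is unknown.

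Irf7 (Entrez 54123, chromosome 7, 141262706 to 141266481, minus strand), itself an interferon-induced gene that amplifies type I interferon production, was at 44.7, 38.6 and 29.6 CPM in lesions, against 48.1, 49.3 and 52.0 CPM in normal regions. Every lesion lay below every normal region and lesion 3 was lowest. It fell by 0.40 log2 units (SE 0.119, adjusted p by edgeR = 0.0153) and passed in 15 of 21 alternatives. It did not pass without normal 2 or normal 3 (adjusted p by edgeR = 0.0563 and 0.0744). Irf2, a repressor at response elements and with 40.8 FPKM the most abundant IRF message per length, was at 94.3, 91.2 and 108 CPM in lesions and 114, 98.5 and 108 CPM in normal regions (log2 -0.13, SE 0.077, adjusted p by edgeR = 0.205). It passed as lower without lesion 3 (-0.20, adjusted p by edgeR = 0.00883). Irf1, Irf8 and Irf9 had log2 differences of -0.08, -0.25 and -0.05, with adjusted p by edgeR from 0.229 to 0.727, and Irf1 passed as lower without lesion 3 (adjusted p by edgeR = 0.0404).

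Irf7, Cxcl9 and Irf8 are also expressed by macrophages. The macrophage message moved in the same direction as Irf7 and Cxcl9. Irf8 overlapped between groups and did not pass (log2 -0.25, adjusted p by edgeR = 0.229). All 8 markers of Kupffer cells and macrophages fell, at a median of -0.62 on the log2 scale, against 18.4% of all tested genes lower. Their summed level was 495 to 526 CPM in lesions, against 803 to 861 CPM in normal regions. Among them Clec4f had a log2 fold change of -0.59, Vsig4 -1.13 and Timd4 -1.17, and none of the 8 was at 0. Lesion and normal libraries did not overlap in 7 of the 8, against 48.2% of all tested genes. Cd68 overlapped (adjusted p by edgeR = 0.0446, DESeq2 0.139), passed in 8 of 21 alternatives and missed the threshold without lesion 1, normal 1 or normal 2 (adjusted p by edgeR = 0.222, 0.211 and 0.135). Their part in the falls of Irf7, Cxcl9 and other members was not tested. In bulk tissue, fewer cells of a type and less RNA per cell cannot be told apart. The 8 sinusoidal endothelial markers summed to 657 to 683 CPM in lesions and 643 to 661 CPM in normal regions. Of these 8, 2 were higher and 0 lower, against 18.7% and 18.4% of all tested genes. The 12 T and NK cell markers summed to 8.96 to 12.4 CPM in lesions and 9.73 to 12.4 CPM in normal regions, and 2 of them had enough counts to be tested, of which 0 passed. Of the dendritic cell markers 0 of 3 tested passed and of the B cell markers 0 of 1, against 37.1% of all tested genes. No neutrophil marker had enough counts, with Ly6g, Mpo and Elane at 0. The stellate cell and fibroblast list had 2 of 8 higher and 2 lower, against 18.7% and 18.4% of all tested genes. In the biliary list 2 of 2 tested genes were higher. Hepatocyte markers summed to 90792.5 to 112276.3 CPM in lesions and 46279.3 to 50254.1 CPM in normal regions, mostly from Alb, and of 6 such genes 2 rose, 3 fell and 1 did not pass.

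None of the 4 genes of RNA sensing passed with edgeR, against 37.1% of all tested genes called. None had an unadjusted p under 0.05, and DESeq2 called 0. Ifih1, which encodes the long-RNA sensor MDA5, was at 49.7, 44.0 and 70.4 CPM in lesions and 44.3, 46.6 and 48.4 CPM in normal regions. Lesion 3 alone stood above the rest, and the log2 difference of 0.23 had an SE of 0.166 (adjusted p by edgeR = 0.317). Without lesion 2 it passed as higher (0.37, adjusted p by edgeR = 0.038). Ddx58, which encodes the sensor RIG-I, was at 40.2, 44.1 and 44.6 CPM in lesions and 35.8, 43.6 and 43.0 CPM in normal regions, overlapping (log2 0.07, interval -0.12 to 0.27). Dhx58, a regulator of both sensors, differed by 0.00 (interval -0.36 to 0.36), and Eif2ak2, the kinase PKR that halts translation on double-stranded RNA, by -0.22 (interval -0.45 to 0.01).

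Over all tested genes, 37.1% were called. Of the 11 classical antiviral effectors, 2 were lower, 8 did not pass and 1 was higher (Mx1, over the low-count filter in lesion libraries only). They are scarce messages here, summing to 27.9 to 36.5 FPKM in lesions and 27.7 to 29.8 FPKM in normal regions for all 11 together, against 78.7 FPKM as the mean over libraries for the most abundant member alone, Bst2. Oas2, an enzyme that makes the alarm molecule 2-5A, was at 9.83, 8.96 and 7.32 CPM in lesions, against 12.2, 12 and 12.2 CPM in normal regions, with no overlap. It fell by 0.48 log2 units (SE 0.160, adjusted p by edgeR = 0.0237). It did not pass without lesion 3 or any 1 normal region (adjusted p by edgeR from 0.0594 to 0.0691). Its relatives did not pass, and since Oas, Ifit and Gbp genes resemble one another and the counting is not described, reads could be split among them. Oas1a, which lay higher in all 3 lesions (7.12, 7.98 and 6.73 CPM, against 4.99, 5.58 and 5.38 CPM in normal regions), had a log2 difference of 0.45 (adjusted p by edgeR = 0.0758), and Oas3 and Oasl2 had -0.13 and -0.24.

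Ifit1, which binds viral RNA caps, was at 3.85, 2.10 and 4.83 CPM in lesions, against 4.84, 7.64 and 5.67 CPM in normal regions. It rested on 75 counts in lesions and 123 in normal regions, and lesion 3 and normal 1 were nearly level. It fell by 0.76 log2 units (SE 0.280, adjusted p by edgeR = 0.0406) and passed in 7 of 21 alternatives. It did not pass without lesion 1, lesion 2, normal 2 or normal 3 (adjusted p by edgeR = 0.0688, 0.198, 0.22 and 0.0813). Its neighbour Ifit3 was at 10.1, 10.4 and 7.17 CPM in lesions and 6.65, 8.96 and 8.86 CPM in normal regions, overlapping (log2 0.18, interval -0.22 to 0.58), and Ifit2 differed by -0.02.

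Mx1, a dynamin-like GTPase that blocks influenza virus and is defective in most laboratory mouse strains, was at 2.28, 1.54 and 4.10 CPM in lesions, against 1.36, 0.587 and 1.31 CPM in normal regions. It rose by 1.26 log2 units (SE 0.438, adjusted p by edgeR = 0.0288) on 55 counts in lesions and 22 in normal regions. It passed the filter on low counts through the lesion libraries only, so that some difference was needed for it to be tested at all. It did not pass without normal 1, 2 or 3 (adjusted p by edgeR = 0.0535, 0.151 and 0.0604), and it was not tested without lesion 1 or lesion 3. Mx2, which GENCODE annotates as a polymorphic pseudogene, had a log2 difference of -0.43 and Rsad2, the radical enzyme viperin, of -0.44 (adjusted p by edgeR = 0.245 and 0.117). Mx2 passed as lower without lesion 3 (adjusted p by edgeR = 0.00771).

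Oasl1, which restrains Irf7 translation, had the largest standard error relative to counting error of the 47 genes. It was at 14.8, 18.8 and 35.1 CPM in lesions and 15.1, 14.4 and 15.7 CPM in normal regions. Lesion 3 stood far above the other libraries, and lesion 1 lay within the normal range. Its log2 difference of 0.60 (SE 0.370) did not pass (adjusted p by edgeR = 0.279), and without lesion 1 it did (adjusted p by edgeR = 0.0401).

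None of the 7 genes of the Isg15 system and the small effectors passed with edgeR, against 37.1% of all tested genes called. None had an unadjusted p under 0.05, and DESeq2 called 0. Bst2, the membrane tether that holds budding virus on the cell, was at 59.1, 63.8 and 67.8 CPM in lesions and 56.8, 65.6 and 71.2 CPM in normal regions, overlapping throughout (log2 -0.02, interval -0.21 to 0.16). Isg15, a ubiquitin-like modifier, was at 3.99, 3.50 and 5.71 CPM in lesions, against 2.27, 3.38 and 3.20 CPM in normal regions. The groups did not overlap, but with 92 counts in lesions and 60 in normal regions the log2 difference of 0.57 (SE 0.283, interval -0.02 to 1.17) did not pass (adjusted p by edgeR = 0.124). Usp18, the protease that removes Isg15 and damps the type I receptor, differed by -0.03 (interval -0.41 to 0.35), and Isg20, Ifi35 and Ifi44 by 0.05, 0.18 and 0.24.

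Ifi27, a mitochondrial interferon-induced protein, was at 58.4, 56.7 and 36.3 CPM in lesions and 35.4, 39.2 and 42 CPM in normal regions. Lesions 1 and 2 lay above every normal region, while lesion 3 lay among them, and the log2 difference of 0.38 (SE 0.183) did not pass (adjusted p by edgeR = 0.156). Without lesion 3 it passed as higher, at 0.56 (adjusted p by edgeR = 9.79e-08).

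The clearest change was a fall in the partner genes Parp9 and Dtx3l. Parp9 (Entrez 80285, chromosome 16, 35938470 to 35972605, plus strand) encodes an ADP-ribosyltransferase family protein that works as a complex with the ubiquitin ligase encoded by Dtx3l (Entrez 209200, chromosome 16, 35926511 to 35939151, minus strand). The genes lie head to head and are known in human cells to share an interferon gamma-responsive promoter. Parp9 was at 24.5, 23.8 and 28.7 CPM in lesions, against 40.5, 38.3 and 37.9 CPM in normal regions, so that every lesion lay far below every normal region. It fell by 0.60 log2 units (SE 0.101, interval -0.81 to -0.39, adjusted p by edgeR = 9.54e-05). Dtx3l was at 53.7, 51.0 and 58.1 CPM in lesions, against 76.5, 71.5 and 68.6 CPM in normal regions, again with a clear gap. It fell by 0.41 (SE 0.079, interval -0.58 to -0.25, adjusted p by edgeR = 0.000396).

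Both calls held in all 21 alternatives, with adjusted p no higher than 0.00814 for Parp9 and 0.025 for Dtx3l. The annotated exons of Parp9 and Dtx3l share 458 bases on opposite strands, 9.4% of the exon bases of Parp9 and 8% of those of Dtx3l, and reads there cannot be assigned to either without strand. Parp14, a family member on the other side of Dtx3l (chromosome 16, 35832874 to 35871544), had a log2 difference of -0.04 (interval -0.21 to 0.13), and Parp12 of -0.11. Trim25, the ligase that activates RIG-I, was at 119, 112 and 119 CPM in lesions, against 102, 110 and 109 CPM in normal regions. All lesions lay above all normal regions, but the log2 difference of 0.12 (SE 0.066) did not pass (adjusted p by edgeR = 0.154). Trim30a differed by -0.24 (adjusted p by edgeR = 0.183).

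**Figure D3:**
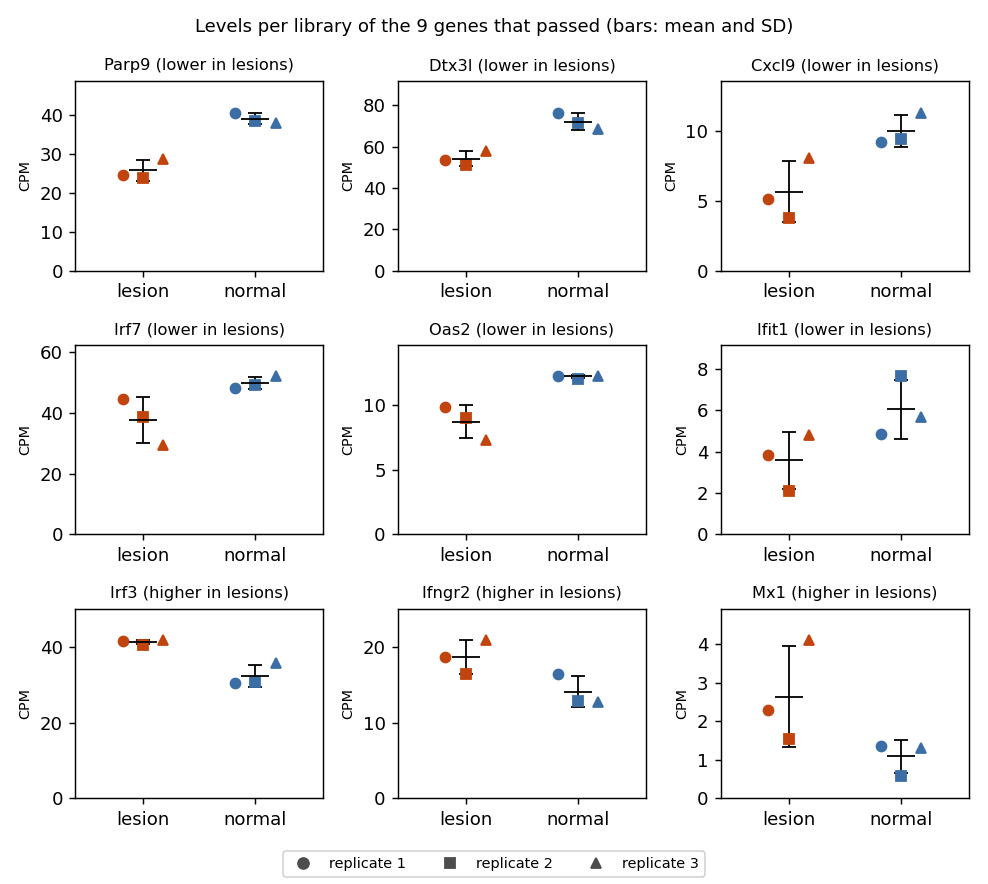
CPM in each library for the 9 members that passed, lesions on the left and normal regions on the right, with mean and SD (n = 3 each) in black and marker shapes for replicate numbers. Parp9 and Dtx3l show the widest gaps relative to their spread, while lesion 3 and normal 1 nearly meet in Ifit1, and lesion 2 and normal 1 in Ifngr2.

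The interferon-induced GTPases take part in defence against pathogens held in vacuoles. None of the 5 passed with edgeR, against 37.1% of all tested genes called. None had an unadjusted p under 0.05, and DESeq2 called 0. Irgm1 was at 29.1, 27.4 and 32.3 CPM in lesions and 26.3, 28.2 and 28.3 CPM in normal regions, overlapping (log2 0.10, interval -0.11 to 0.31). Igtp was at 20.1, 20.9 and 25.0 CPM in lesions and 21.3, 21 and 19 CPM in normal regions (log2 0.10, interval -0.15 to 0.36). Igtp shares 162 exon bases with Irgm2 on the same strand, 8.01% of its exon bases. The guanylate-binding genes Gbp2, Gbp3 and Gbp7 had log2 differences of -0.23, -0.35 and -0.11. Gbp2 was at 3.85, 4.06 and 8.63 CPM in lesions and 6.20, 6.31 and 6.83 CPM in normal regions, so that lesions 1 and 2 were the lowest libraries and lesion 3 the highest. Without lesion 3, Gbp2 and Gbp3 passed as lower (adjusted p by edgeR = 0.0154 and 0.0241).

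Of the chemokines that draw T cells through Cxcr3, Cxcl9 fell and Cxcl10 did not pass. Cxcl9 (Entrez 17329, chromosome 5, 92321347 to 92328079, minus strand), which answers mainly to interferon gamma, was at 5.13, 3.78 and 8.05 CPM in lesions, against 9.22, 9.40 and 11.3 CPM in normal regions. The groups did not overlap and lesion 3 was nearest to the normal regions. It fell by 0.82 log2 units (SE 0.226, interval -1.31 to -0.35, adjusted p by edgeR = 0.0079), passed in 16 of 21 alternatives and was lost without normal 3 (adjusted p by edgeR = 0.0526). Cxcl10, which type I interferons induce as well, was at 3.28, 3.64 and 3.95 CPM in lesions and 3.63, 2.20 and 3.34 CPM in normal regions. It overlapped between groups (log2 0.24, interval -0.35 to 0.84) on 76 counts in lesions and 62 in normal regions. Cxcl10 shares 133 exon bases with Art3 on the other strand, 5.91% of its exon bases.

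Lesion 3 differed from lesions 1 and 2 across the family. It was the highest of the 6 libraries in 21 of 47 members (44.7%), against 18.5% of all tested genes, and the lowest in 7 members (14.9%), against 17.7%. Lesion 1 was the highest in 1 member and lesion 2 in 4. The median member lay at -0.05, -0.08 and 0.05 on the log2 scale from the normal mean in lesions 1 to 3, against 0.01, 0.00 and 0.00 over all tested genes. In lesions 1 to 3, 2, 2 and 5 members lay more than 0.5 above the normal mean, and 7, 6 and 2 lay more than 0.5 below it. The shares above were 4.26%, 4.26% and 10.6% of members, against 14.1%, 14.9% and 13.1% of all tested genes. The shares below were 14.9%, 12.8% and 4.26% of members, against 12.8%, 14.0% and 12.2% of all tested genes. Lesion 3 also stood apart over all genes. The chi-square per degree of freedom between libraries was 10.3 and 10.4 for lesion 3 against lesions 1 and 2, and 1.54 between lesions 1 and 2. In lesions 1 to 3 the T and NK markers summed to 12.4, 8.96 and 11.0 CPM and the macrophage markers to 502, 495 and 526 CPM.

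**Figure D4:**
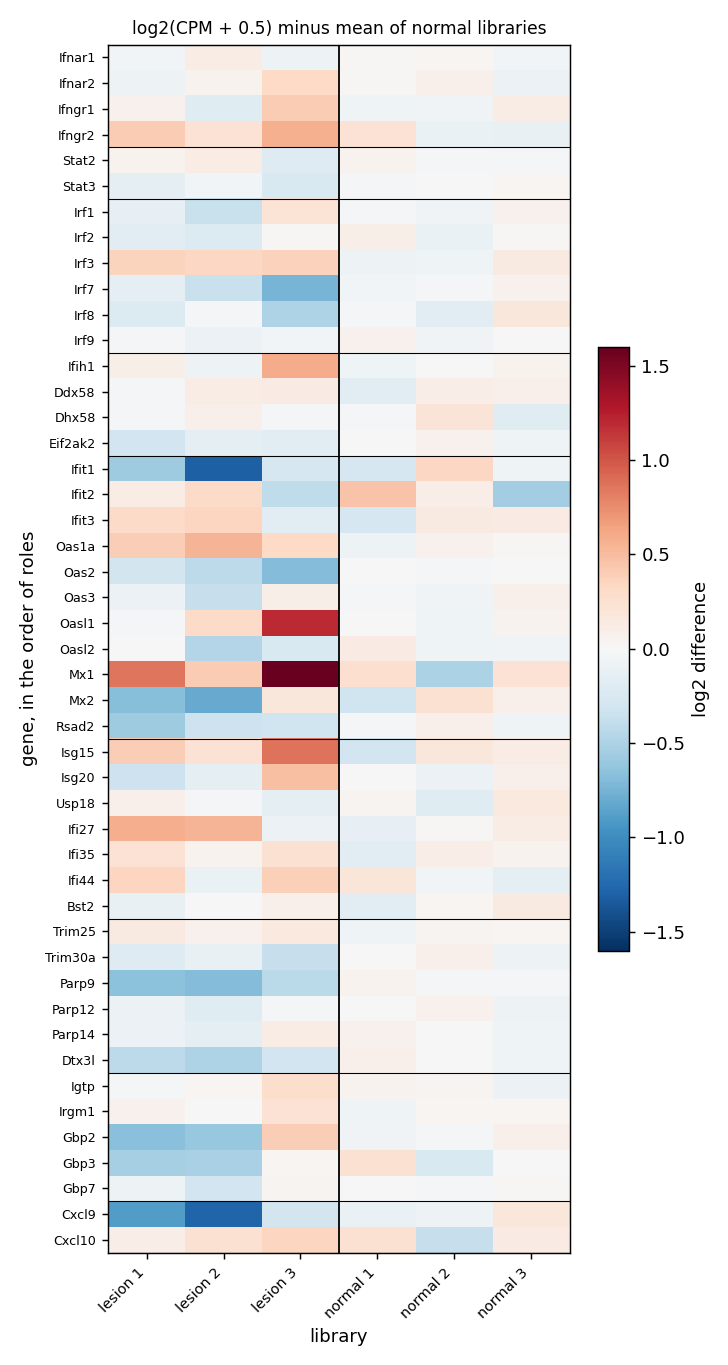
Difference of log2(CPM + 0.5) from the mean of the normal libraries, for each member (rows, by role) in each library (columns, lesions on the left). Parp9 and Dtx3l are blue in all 3 lesions, while Oasl1, Ifih1 and Isg20 are red in lesion 3 and Ifi27 is red in lesions 1 and 2 only.

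The wider pathway was read from 6 further lists. Of 122 such genes in the table, 95 were tested, of which 11 rose, 23 fell and 61 did not pass, at a median of -0.11, against 18.7% and 18.4% of all tested genes. The count of lower genes was 12 without lesion 1 and 14 without normal 1. Interferon messages themselves were hardly detected at this depth. Of 21 ligand genes, 18 had 0 counts in all 6 libraries, which allows up to 0.439 CPM in a lesion and 0.453 CPM in a normal library at 3 counts. Ifng and Ifna16 had 1 count each, both in a normal library. Ifnk was tested on 13 to 19 counts in lesions and 13 to 17 in normal regions (log2 0.04). It lies inside Mob3b on the opposite strand, with 0 shared exon bases, so its reads cannot be told from unspliced Mob3b RNA while the strand setting is unknown.

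Among 15 tested JAK kinases and brakes, 2 rose and 1 fell, against 18.7% and 18.4% of all tested genes. The kinase gene Tyk2 rose by 0.50, with 287, 333 and 237 counts in lesions, against 171, 187 and 229 in normal regions (adjusted p by edgeR = 0.00325). The brake Cish rose by 0.82 (adjusted p by edgeR = 0.00477). Socs3, the brake on Stat3 signalling, fell by 0.47 (adjusted p by edgeR = 0.0388) and passed in 8 of 21 alternatives; it was lost without lesion 1, lesion 3 or any 1 normal region (adjusted p by edgeR from 0.0746 to 0.126). Tyk2 shares 8.07% of its exon bases, and Cish 7.46%, with an antisense gene. Jak1, with 1020, 1067 and 1211 counts in lesions and 1031, 1103 and 1102 in normal regions, differed by -0.02 (adjusted p by edgeR = 0.865). Of 6 other STAT and IRF genes, Stat6 rose by 0.30 (adjusted p by edgeR = 0.0023) and Irf5, another macrophage gene, fell by 0.45 (adjusted p by edgeR = 0.00946). Irf5 shares 14.1% of its exon bases with Tnpo3 on the other strand, and it missed the threshold without lesion 1 or normal 1 (adjusted p by edgeR = 0.0668 and 0.0587).

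Of 16 sensors and adaptors upstream of interferon, 3 were higher and 2 lower, against 18.7% and 18.4% of all tested genes. Traf3 rose by 0.73 (adjusted p by edgeR = 2.83e-05), Ticam1, the adaptor TRIF of Toll-like receptor 3, by 0.66 (adjusted p by edgeR = 9.44e-05), and Ikbke, a kinase that phosphorylates Irf3, by 0.50 (adjusted p by edgeR = 0.000118). Ifi204, a DNA sensor of myeloid cells, fell by 0.75 (adjusted p by edgeR = 0.00146). Each of these 4 calls held in all 21 alternatives. Of the receptors that act through Stat3, 5 of 6 fell, against 18.4% of all tested genes. Il6st, the shared signalling chain gp130, had 1372, 1319 and 1392 counts in lesions, against 1833, 1963 and 1966 in normal regions, and fell by 0.54 (adjusted p by edgeR = 5.53e-07). Lifr fell by 0.55 (adjusted p by edgeR = 7.77e-07), Cntfr by 0.74 and Il6ra by 0.22 (adjusted p by edgeR = 0.0151 and 0.0214). Il6ra held its call when lesion 3 was dropped, and not when any other library was (adjusted p by edgeR from 0.0516 to 0.0989), and Cntfr lost its call without lesion 1 or normal 3 (adjusted p by edgeR = 0.0781 and 0.0758).

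Of 51 other tested interferon-induced genes, 5 rose, 14 fell and 32 did not pass, at a median of -0.11. Over all tested genes, 18.7% rose and 18.4% fell. The lowest p belonged to Apol9b and Apol9a, closely similar apolipoprotein L genes that can share reads. Apol9b had 379, 389 and 329 counts in lesions, against 595, 691 and 662 in normal regions, and fell by 0.88 (adjusted p by edgeR = 2.88e-08), and Apol9a fell by 0.71 (adjusted p by edgeR = 8.39e-06). Ifitm2, a membrane protein that blocks viral entry, fell by 0.43 (adjusted p by edgeR = 8.67e-05), though 40.9% of its exon bases are shared with an overlapping gene model on the same strand. Lgals3bp, a secreted glycoprotein, rose by 0.39 (adjusted p by edgeR = 0.000219), with 687, 776 and 761 counts in lesions, against 528, 541 and 572 in normal regions. These 4 calls held in all 21 alternatives.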

How the data were processed

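The authors deposited whole-number read counts and FPKM values per Entrez gene for each of the 6 libraries, and a table of their own lesion comparison with, per gene, the mean signal, log2 fold change and its error, test score, and both raw and adjusted p-values. Per the submitters' processing notes, the build was mm10 and the tools were STAR 2.5.2b, cutadapt 1.18, DESeq2 1.24.0 and CASAVA 1.8. How reads were counted (tool, gene models, strand) is not given in the sources used here. For the deposited FPKM values, the ratio of count to FPKM between libraries was constant over genes, so they carry a per-library scale and a per-gene length only.

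In edgeR 4.0.16 (R 4.3.3), the default filterByExpr set the tested genes, TMM scaled the libraries, and a robust, two-sided quasi-likelihood test compared the groups with no covariate. Genes with a Benjamini-Hochberg p under 0.05 across the whole table passed. CPM are on TMM-scaled library sizes. Standard errors come from the fold change and its F statistic, and 95% intervals come from inverting the same test without adjustment. The smallest change that would pass is the standard error times the critical value at the largest unadjusted p that passed, 0.0185. The calculations were tested on simulated data in which few genes were shifted, in both directions. Far more genes were called in the real data, so that run cannot judge the scaling used here. Totals lay between 6352898 and 7412833 counts. Intervals cover spread between libraries, and floors cover counting error only.

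The members, their grouping by role, the other lists and the tests were chosen with earlier results of these data known. Genes described by library are the members that passed, all receptor and STAT genes, and in each role group the 2 members with the highest mean FPKM, and from each other list up to 4 passing genes with the lowest p, or the 2 with the highest mean CPM where none passed. Any other gene named was chosen after its values were seen. Alternatives were RLE scaling or library size alone, no count filter or at least 20 counts in 3 libraries, DESeq2 1.42.0, limma-voom (limma 3.58.1), a fit that was not robust, limma on log2 FPKM with pseudocounts of 1 and 0.1 (mean FPKM of at least 0.5, or no filter), a replicate block, and each library or replicate number left out. Summing the closest libraries was added after seeing the data. Promoter sequence is RefSeq's, build GRCm38.p6, the patched form of the assembly behind mm10, and gene positions are from GENCODE release M21 on the same assembly. For 1 listed symbol, the sensor gene Mb21d1, no row was matched, and it was not analysed here.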

Additional observations from a re-analysis of the deposited data

How the results depend on the processing

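The falls of Parp9 and Dtx3l kept their direction and their side of the threshold under all 21 alternatives. Over the 47 members and all alternatives, 984 values were computed, of which 62 lost and 22 gained a call. The sign turned in 61 values from 17 members, and in 0 where the gene passed in either fit. The 3 higher and 6 lower members became 1 higher and 11 lower with library size alone, 1 and 3 with the closest libraries summed, and 1 and 2 on log2 FPKM with pseudocount 1 and no filter. DESeq2 called 1 member higher, and with no count filter 5 were higher. Leaving out libraries or replicate numbers gave 0 to 4 members higher and 2 to 10 lower, 19 to 33 members whose smallest passing change was under 0.5 (31 with all libraries), and 6 to 13 pathway genes higher (11) and 10 to 30 lower (23). The 23 lower pathway genes became 11 with DESeq2, 11 with the closest libraries summed, 37 with library size alone and 14 on unfiltered log2 FPKM. Of all tested genes, 2340 were higher and 2296 lower, against 1474 and 3615 with library size alone, and 1349 to 2798 and 1352 to 2796 with libraries left out. The summed member level differed by -0.036 on the log2 scale, and by -0.175 with library size alone. The cause of these shifts was not tested. Same-numbered lesion and normal libraries did not deviate together (correlations of 0.0112, -0.0205 and -0.0219). That check cannot tell whether same-numbered regions came from the same mouse, since the deviations also hold counting error. With the replicate block, 3 members were higher and 5 lower, and Ifit1 lost its call (edgeR adjusted p = 0.0588). Where a group keeps 2 libraries or fewer, the spread rests on those that remain. The fewest counts were those of Mx1, Isg20, Oas3, Cxcl10 and Isg15, at means of 12.8 to 25.3 per library.

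Among the genes described by library, those whose log2 difference turned sign had not passed. With library size alone they were -0.13 for Ifnar1, -0.04 for Ifnar2, -0.03 for Ifngr1, -0.07 for Ddx58, -0.02 for Trim25, -0.04 for Igtp, -0.04 for Irgm1 and -0.10 for Ifnk. With the closest libraries summed they were -0.01 for Ifnar1 and 0.03 for Bst2. Ifnar1 stood at -0.01 with no count filter and at -0.00 on log2 FPKM under each pseudocount and filter. With libraries or replicate numbers left out, the values ran from -0.06 to 0.04 for Ifnar1, -0.06 to 0.20 for Ifnar2, -0.06 to 0.26 for Ifngr1, -0.08 to 0.09 for Stat2, -0.01 to 0.12 for Ddx58, -0.02 to 0.38 for Ifit3, -0.11 to 0.05 for Bst2, -0.05 to 0.20 for Igtp and -0.17 to 0.28 for Ifnk.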
